A study of Homo sapiens with 2 samples.

Results

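The genes of respiratory complex I were read on 2 microarrays, 1 for DMSO-treated HepG2 cells and 1 for cells given HTE, the extract of hawk tea. The members were the protein-coding genes with a symbol that starts with NDUF, found through the RefSeq transcript named for each probe. The gene table held 46 such genes. A probe was named for 45 of them, and all 45 were well above background on both arrays, out of 23752 genes and unnamed transcripts that passed this flag on 1 array or both. The readthrough gene NDUFC2-KCTD14 had no probe named for it.

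HepG2 is an established human hepatocellular carcinoma line, grown here as a culture of 1 cell type. Both cultures were kept in high-glucose DMEM with fetal bovine serum, penicillin and streptomycin. The control culture received 1 per mille DMSO and the treated culture received HTE, and both were harvested at 24 h. The labels gave the dose of HTE as 200 μg mL-1, whereas the methods of the study and the name of the HTE array give 300, so the sources differ on the dose. Each condition had 1 array, so there was no test between the conditions, no p value is given, and the effect of HTE cannot be told apart from a difference between 2 cultures or 2 arrays. In a bulk culture, fewer living cells and less RNA per cell cannot be told apart either.

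Complex I is the NADH dehydrogenase of the inner mitochondrial membrane and the largest enzyme of the respiratory chain. A peripheral arm in the matrix takes electrons from NADH and passes them along iron-sulfur clusters to ubiquinone, and a membrane arm pumps protons. Core subunits carry out the reaction, accessory subunits surround and stabilise them, and assembly factors help to build the enzyme but are not part of it. In hepatocytes the enzyme feeds the oxidation of fatty acids and of pyruvate into ATP synthesis. The core subunits of the membrane arm are encoded by mitochondrial DNA, and no probe was named for them, so every value here is for a nuclear gene.

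The arrays were Agilent 1-colour arrays on the same slide, scanned together. Each held 58717 spots that were not controls, of which 60.6% (DMSO) and 56.6% (HTE) were well above background and 0 were saturated. The signal at the 75th percentile was 4019.98 on the DMSO array and 3570.3 on the HTE array, and every log2 ratio here is HTE over DMSO after each array was scaled to that percentile. All 9 hepatocyte markers examined, among them ALB and HNF4A, were well above background on both arrays, with log2 ratios from -0.36 (FGB) to 0.21 (SERPINA1). Of 9 markers of blood, endothelial and fibroblast cells, CD3E, CDH5 and COL1A2 were not well above background on either array. The other 6 ranged from -1.82 for PECAM1, with signals of 804 on the DMSO array and 203 on the HTE array, to 0.46 for CD68.

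No complex I gene differed by 1.5-fold between the arrays. The log2 ratios of the 45 genes ran from -0.22 (NDUFA12) to 0.20 (NDUFA9), or from -14.3% to 14.8%, with a median of 0.017 and an SD across genes of 0.12. A ratio above 0 was found for 24 of the 45 genes and a ratio below 0 for 21, where 45.7% of all 23752 genes and transcripts were above 0. None of the 45 was at least 1.5-fold higher (12.4% of all genes and transcripts) or at least 1.5-fold lower (10.5%), and none was at least 2-fold higher (5.25%) or at least 2-fold lower (3.03%). The counts at 2-fold over all genes move with the scaling, and 1248 were higher and 720 lower here, whereas the higher ones made up 42.2% of such calls without scaling and 0.682% with scaling to the spike-in probes.

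The ratios of the complex I genes were spread more narrowly than those of all genes. The SD of the log2 ratio was 0.59 over all genes and transcripts. It was 0.36 over the 5576 whose scaled log2 signal, averaged over the 2 arrays, lay in the range of the complex I genes. Of those 5576, 9.25% were at least 1.5-fold higher or lower. The widest complex I ratio, 0.22 in size, held 42.5% of all genes and transcripts and 57.6% of those in the same range of signal. The complex I genes were bright, with processed signals from 10233 (NDUFAF1) to 110511 (NDUFA11) on the DMSO array and from 8988 (NDUFAF1) to 102065 (NDUFA11) on the HTE array. These are descriptions of 2 arrays, and the difference in spread was not tested.

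**Figure D1:**
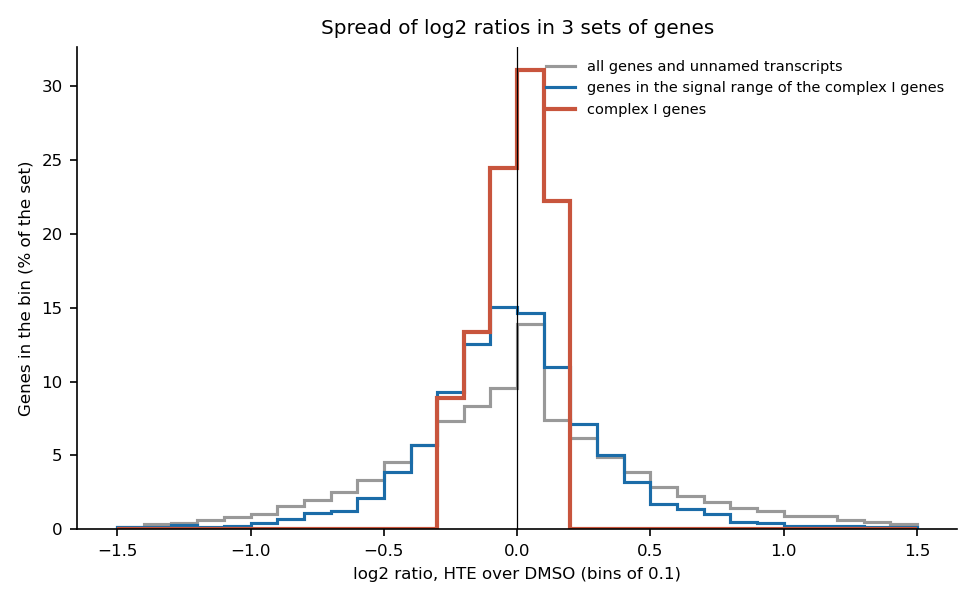
Share of genes (vertical axis, % of the set) by log2 ratio, HTE over DMSO, in bins of 0.1 (horizontal axis) for all genes and unnamed transcripts (grey), those in the signal range of the complex I genes (blue) and the 45 complex I genes (red). The red outline fills only the bins from -0.3 to 0.2, since the complex I ratios run from -0.22 to 0.20, while the other outlines reach past 1.5-fold on both sides.

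The size of the measuring error sets how far single genes can be told from 0. The scanner software gives each spot an error, which amounts to 0.20 on the log2 ratio of each complex I gene. The ratios of 4 genes (NDUFA12, NDUFB6, NDUFS3 and NDUFAB1) lay below 0 by more than 1 such error, and none lay above 0 by as much. Replicate spots on the arrays were closer together than that, with a median SD of the log2 ratio of 0.051 over the 688 probes with at least 5 usable spots. The ratios of 16 complex I genes lay above 0 by more than 1 such SD, 16 lay below 0 by more than it and 13 lay within it. A distance of 1 SD does not set a single gene apart from 0, and the spots of NDUFS5 had a wider SD of 0.088. The shares of all genes beyond these 2 errors were not counted, so these counts cannot be set against all genes. Within 0.22 of 0, the size of the widest complex I ratio, lay 42.5% of all genes and transcripts and 57.6% of those of like signal. Neither error holds the spread between cultures, which 1 array per condition does not show.

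A pair of complex I genes were printed as 10 spots each and show that error directly. NDUFS6, a zinc-binding accessory subunit of the peripheral arm, gave processed signals from 66362.5 to 74565.5 (median 70516) on the DMSO array and from 57876.6 to 60523.1 (median 59434.6) on the HTE array. Its spots did not overlap between the arrays before scaling, and after scaling the mean log2 ratio was -0.078 ± 0.049 (SD over 10 spots), with all 10 spots below 0. NDUFS5, an accessory subunit of the membrane arm, gave signals from 78440.2 to 93682.8 (median 84772.6) on the DMSO array and from 74839.3 to 80314.6 (median 77272.3) on the HTE array. These spots overlapped between the arrays, and the mean log2 ratio was 0.026 ± 0.088 (SD over 9 spots usable on both arrays), with 7 spots above 0 and 2 below.

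**Figure D2:**
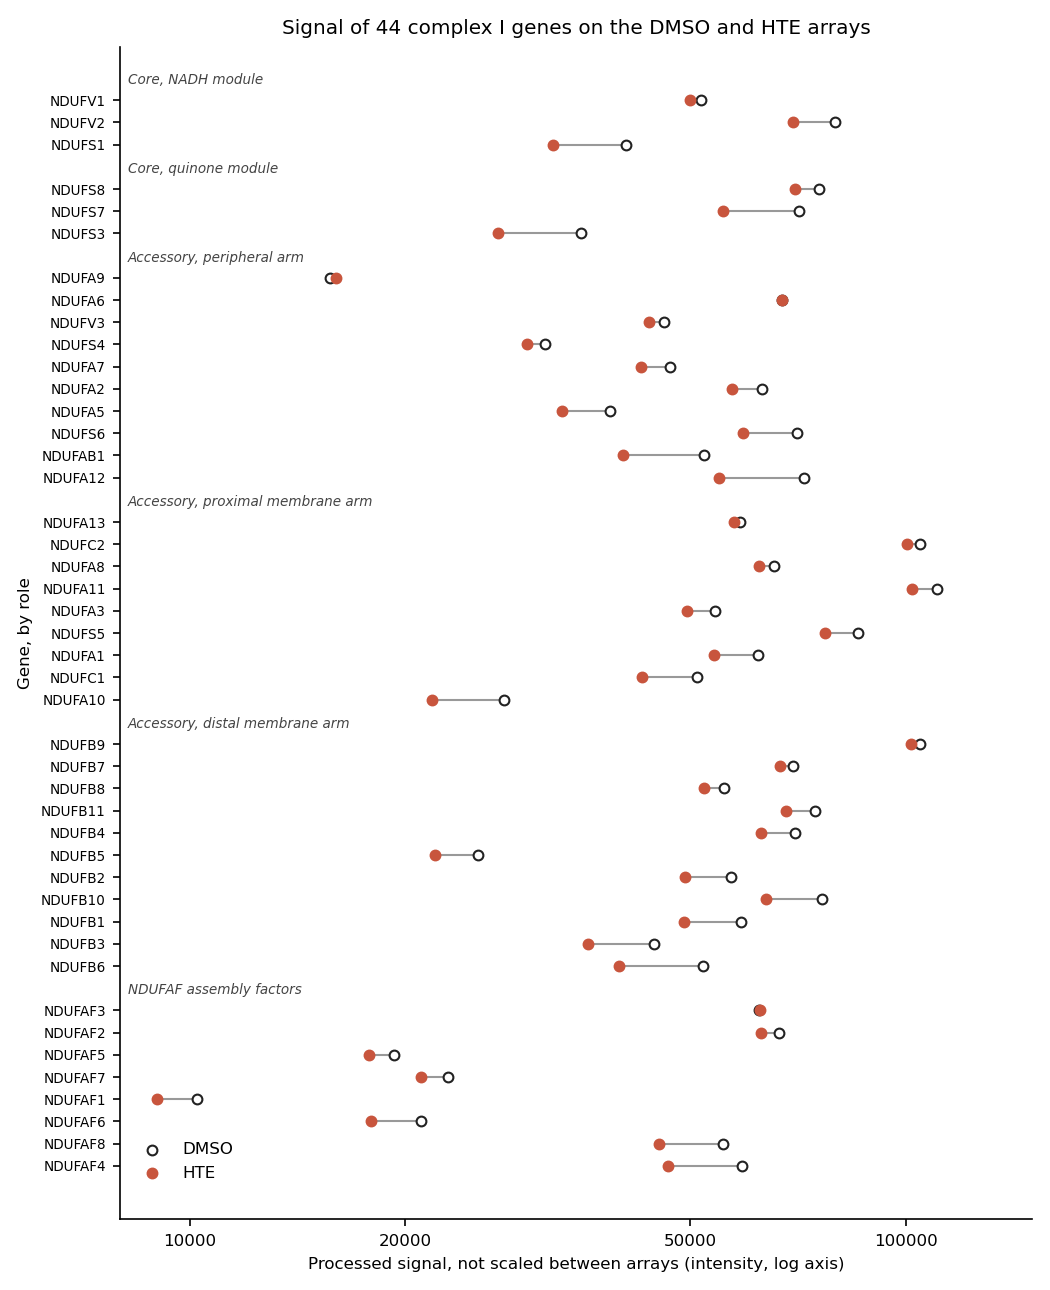
Processed signal of 44 complex I genes (intensity in arbitrary units, log axis, before scaling between arrays) on the DMSO array (open circles) and on the HTE array (filled circles), grouped by role. The 2 circles of a row can be compared with each other but not with other rows, since probes differ in brightness. The HTE circle lies to the left for 41 of them and to the right for 3 (NDUFA9, NDUFA6 and NDUFAF3).

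The promoters of these genes were searched for 7 motifs in the window from 250 bases before to 50 bases after the start of each gene, on both strands, in the RefSeq sequences of GRCh38.p14. A promoter was listed for 39 of the 45 genes and for 15843 protein-coding genes in all. The letters GCATGCGC, part of the motif of the transcription factor NRF1, which is known to control many genes of the respiratory chain, were found in 8 of the 39 (20.5%) and in 4.89% of all promoters. The letters AAGATGGC, which match the motif of YY1, were found in 8 of the 39 (20.5%) and in 4.66% of all promoters. Each of the YY1 matches lay after the start of the gene, and these letters contain an ATG, as a start codon does.

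The CCGGAAG motif of ETS factors such as GABP was found in 7 of the 39 (17.9%) against 16.5% of all promoters, and the GGGCGG box in 25 (64.1%) against 64.3%. CCAAT was found in 12 (30.8%) against 42.1%, TATAAA in 3 (7.69%) against 12.4%, and the CRE letters TGACGTCA in 2 (5.13%) against 3.0%. A match is a description of the letters and not a site of binding. The 8 genes with the NRF1 letters had a median log2 ratio of -0.018 (from -0.18 to 0.17), and the 31 without them 0.031. The 8 genes with the YY1 letters had a median of 0.060 (from -0.18 to 0.20), and the 31 without them -0.024. The 7 genes with the ETS letters had a median of -0.13 (from -0.21 to 0.14), and the 32 without them 0.033. In each case the genes with and without the letters overlapped.

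Stretches around the NRF1 letters are shown for 5 genes, since NRF1 itself is among the genes described at the end. They run 5′ to 3′ in the direction of the gene, and capitals mark the match or, in NDUFB4, the overlapping matches on both strands. They lie at chr7:123557939-123558006 on the minus strand (NDUFA5), chr22:42090901-42090968 on the minus strand (NDUFA6), chr3:120596147-120596216 on the plus strand (NDUFB4), chr5:1801331-1801398 on the plus strand (NDUFS6) and chr19:1383804-1383871 on the plus strand (NDUFS7).
NDUFA5: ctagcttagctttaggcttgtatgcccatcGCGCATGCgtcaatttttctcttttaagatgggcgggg
NDUFA6: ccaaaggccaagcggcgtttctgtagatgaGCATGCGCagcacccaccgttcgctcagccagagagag
NDUFB4: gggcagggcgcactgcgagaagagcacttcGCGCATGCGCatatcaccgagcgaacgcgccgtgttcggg
NDUFS6: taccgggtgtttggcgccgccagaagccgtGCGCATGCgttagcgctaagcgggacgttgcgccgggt
NDUFS7: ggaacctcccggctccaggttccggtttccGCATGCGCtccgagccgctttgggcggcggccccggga
With these letters in each promoter, the log2 ratios were -0.054 for NDUFA5, 0.17 for NDUFA6, 0.017 for NDUFB4, -0.078 for NDUFS6 and -0.18 for NDUFS7.

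Stretches around the YY1 letters are shown for 4 genes, to show how close to the start the match lies, with capitals again marking the match. They lie at chr12:4649114-4649141 on the plus strand (NDUFA9), chr10:100529837-100529864 on the minus strand (NDUFB8), chr19:1383914-1383941 on the plus strand (NDUFS7) and chr22:42090730-42090757 on the minus strand (NDUFA6). The match began at base 11 of NDUFA9, at base 18 of NDUFB8 and NDUFS7, and at base 26 of NDUFA6, counted after the start of the gene.
NDUFA9: attgtgggaaAAGATGGCggctgccgca
NDUFB8: gaagaaggtgAAGATGGCggtggccagg
NDUFS7: ggccgaggccAAGATGGCggtgctgtca
NDUFA6: atgctttggcAAGATGGCggggagcggc
NDUFA6 and NDUFS7 held both sets of letters and had ratios of opposite sign.

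The NADH module takes electrons from NADH, and its 3 nuclear core genes had log2 ratios from -0.17 to 0.12. NDUFV1, which binds NADH and the flavin cofactor, gave processed signals of 51693 on the DMSO array and 49999.6 on the HTE array, a scaled log2 ratio of 0.12. NDUFV2, a partner of NDUFV1 that carries an iron-sulfur cluster, gave 79633 and 69538, a ratio of -0.024. NDUFS1, the large subunit with several iron-sulfur clusters, gave 40707 and 32115, a ratio of -0.17. All 3 signals were lower on the HTE array before scaling, and after scaling 1 of the 3 was above 0.

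The quinone module passes the electrons to ubiquinone, and the 3 of its core genes reported here had ratios from -0.21 to 0.060. NDUFS7, which holds the last iron-sulfur cluster before ubiquinone, gave 70907 on the DMSO array and 55573 on the HTE array, a ratio of -0.18. NDUFS8, another iron-sulfur protein, gave 75650.4 and 70033, a ratio of 0.060. NDUFS3, a core subunit without a cofactor, gave 35220.1 and 26954, a ratio of -0.21. All 3 signals were lower on the HTE array before scaling, and NDUFS8 was the only one of them above 0 after it.

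The 10 accessory genes of the peripheral arm held the highest and the lowest ratio of all 45 genes. NDUFA9, which binds a nucleotide beside the quinone module, gave 15687 on the DMSO array and 15993 on the HTE array, a ratio of 0.20. NDUFA12, which takes the place of the assembly factor NDUFAF2 late in assembly, gave 71949 and 54768, a ratio of -0.22. NDUFA9 was among the 3 genes whose signal was higher on the HTE array before scaling. NDUFA6, which anchors an acyl carrier protein on the arm, gave nearly equal signals of 67184 and 67217, a ratio of 0.17. NDUFAB1, the acyl carrier protein itself, which also serves mitochondrial fatty acid synthesis, gave 52295 and 40249, a ratio of -0.21. The median of the 10 genes was 0.033, with 6 above 0 and 4 below. NDUFAF2, the assembly factor whose place NDUFA12 takes, had a ratio of 0.087.

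The 20 accessory genes of the membrane arm lay in the same range as those of the peripheral arm. In the proximal part, 9 genes had ratios from -0.16 to 0.14 with a median of 0.045, and 6 of them were above 0. NDUFA13, which is also known as GRIM-19, gave 58640.4 on the DMSO array and 57516 on the HTE array, a ratio of 0.14. NDUFA10, which resembles nucleoside kinases, gave 27434 and 21796, a ratio of -0.16. In the distal part, 11 genes had ratios from -0.22 to 0.13 with a median of -0.027, and 5 of them were above 0. NDUFB9, which anchors another copy of the acyl carrier protein, gave 104686 and 101618, a ratio of 0.13. NDUFB6 gave 52009.9 and 39788, a ratio of -0.22. Over whole arms, the median was 0.015 for the 17 genes of the peripheral arm and 0.019 for the 20 of the membrane arm.

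The 8 NDUFAF genes encode assembly factors, and 4 of their ratios were above 0 and 4 below, with a median of 0.014. NDUFAF3 and NDUFAF4, which act together in building the quinone module, stood at the ends of this group. NDUFAF3 gave 62397 on the DMSO array and 62524 on the HTE array, a ratio of 0.17. NDUFAF4 gave 59021 and 46574, a ratio of -0.17. The subunits and the assembly factors did not separate, with ratios from -0.22 to 0.20 for the 37 subunits and from -0.17 to 0.17 for the 8 factors.

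**Figure D3:**
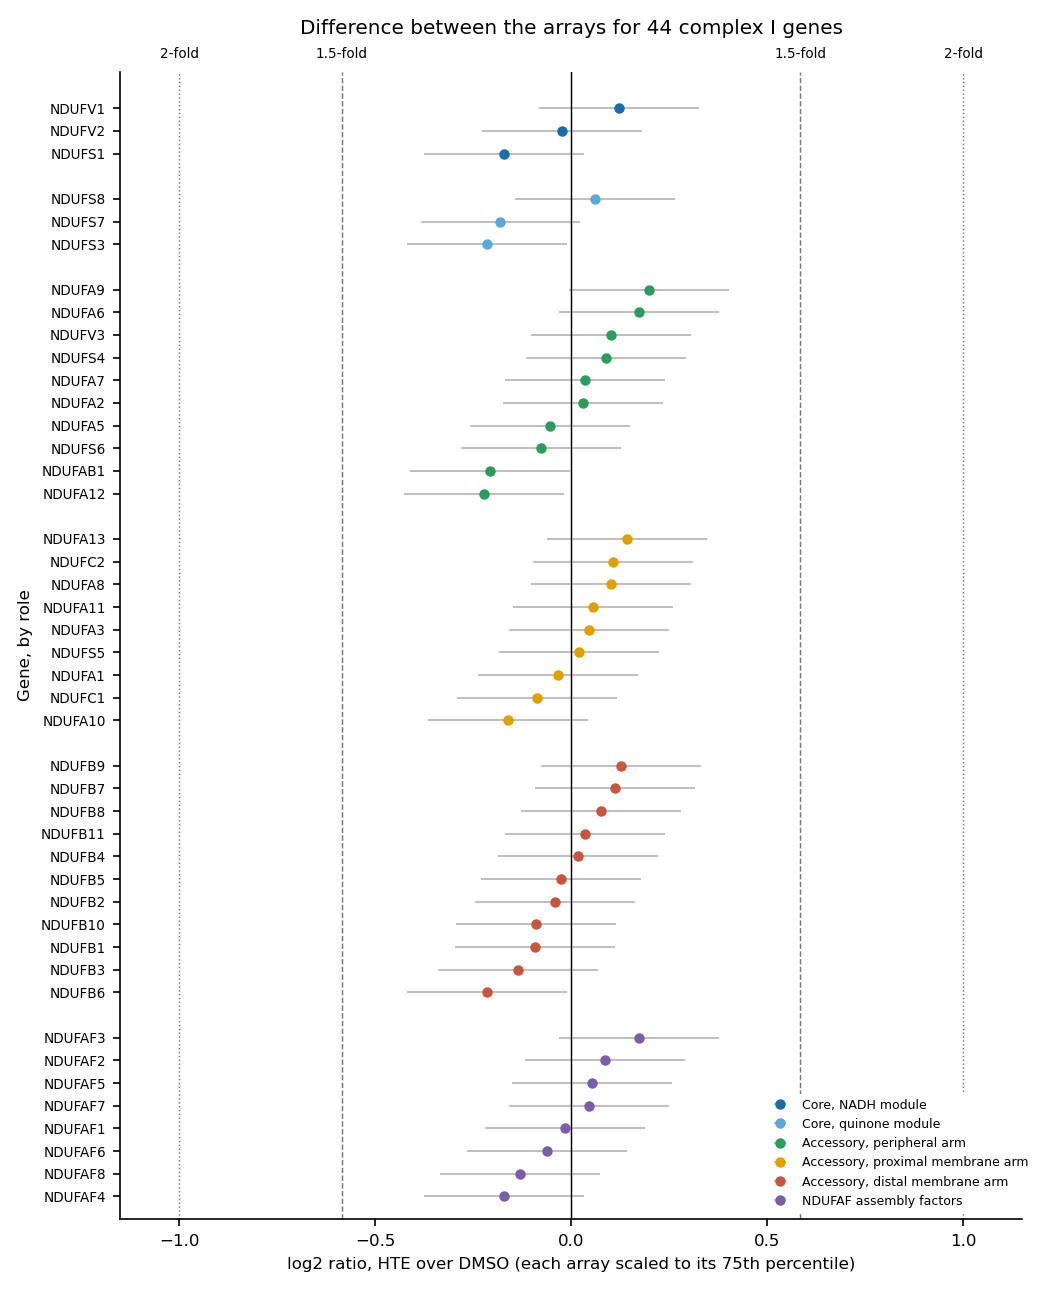
Log2 ratio of HTE over DMSO (horizontal axis, each array scaled to its 75th percentile) of 44 complex I genes, coloured by role, with the software error of 0.20 to each side as a grey line. All points lie inside the dashed lines at 1.5-fold, and every role has genes on both sides of 0.

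A second probe was present for 9 of the 45 genes, and it gave a check of the ratio that does not share the probe sequence. The ratios from both probes differed by a median of 0.096 in size, where the median over the 3759 genes with several probes well above background on both arrays was 0.21. For 7 of the 9 genes both probes had the same sign. The signs were opposite for 2 of the 9, and for 1026 of the 3759. NDUFA12 gave -0.22 and -0.13 and NDUFB6 gave -0.22 and -0.11, so both were also below 0 on a second probe. The ratios of these second probes lay within the software error of 0.20. NDUFS3 and NDUFAB1 had 1 probe each. NDUFC2, an accessory subunit of the membrane arm, gave 104751 on the DMSO array and 100237 on the HTE array with its brightest probe, a ratio of 0.11. Its second probe gave 13519.5 and 9119, a ratio of -0.40, and the difference of 0.50 was the widest of the 9. NDUFA10 also changed sign between its probes, from -0.16 to 0.26, and NDUFB5 went from -0.027 to -0.29. The probes of NDUFC2 and of NDUFB5 were named for different RefSeq transcripts of the gene, and those of NDUFA10 for the same transcript. A difference of at least 0.5 between probes was found for 1 of the 9 genes (11.1%) and for 17.5% of the 3759.

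The number of complex I genes above 0 moved with the scaling of the arrays. With no scaling 42 of the 45 genes were lower on the HTE array and the median ratio was -0.15. With scaling to the median of each array 12 genes were above 0 and 33 below, with a median of -0.063. With scaling to the E1A spike-in probes all 45 were at least 2-fold lower, with ratios from -1.54 to -1.12. The median over all genes moved along with them, to -0.16 without scaling, to -0.070 with scaling to the median and to -1.31 with the spike-in probes. The median signal of the spike-in probes was 13889 on the DMSO array and 30821 on the HTE array, and the reason for that difference was not tested. These 3 scalings add the same amount to each of the 45 genes, so the order and the SD of the 45 stay as they were. Not every other gene moves by that amount, since a probe dim on 1 array enters with a bound. With scaling to the 75th percentile the medians were 0.017 for the complex I genes and 0 for all genes. The median of the complex I genes minus that of all genes was 0.0069 under each of the 3 scalings. Other settings also moved that distance, which was -0.0050 with quantile normalization and 0.0014 with normexp correction. It was 0.050 with the own value of dim probes and -0.18 with no filter on dim probes. In the last of these, the median of the 45 genes was still 0.017, and that of all genes was 0.20 once probes near background entered.

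**Figure D4:**
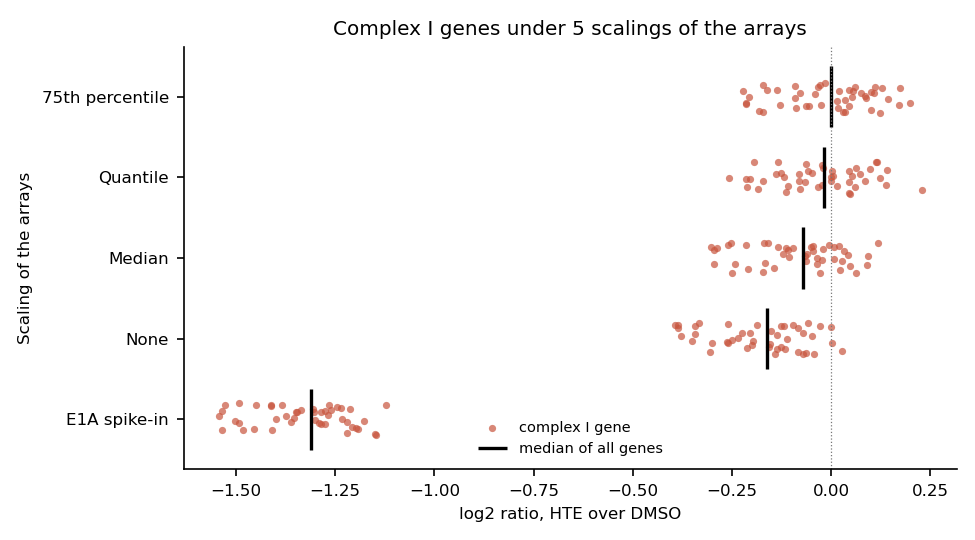
Log2 ratio of HTE over DMSO (horizontal axis) of each complex I gene (points) under 5 ways of scaling the arrays, with the median of all genes and transcripts as a vertical bar. The points surround the bar under each scaling, and with the spike-in probes both lie near -1.3, left of 0.

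Other genes listed as complex I assembly factors, without the NDUF name, spread more widely. Of 15 other assembly factors listed, 14 were measured and 13 were well above background on both arrays, with DMAC1 well above background on the DMSO array only and no probe named for TMEM70. The median was -0.054, with 5 above 0, 8 below and none at 1.5-fold, and DMAC1 entered at 0 through its bound. OXA1L, which inserts proteins into the inner membrane, gave 32149.8 on the DMSO array and 38646 on the HTE array, a ratio of 0.44. FOXRED1, an assembly factor, gave 697 and 479, a ratio of -0.37, with signals below those of all 45 NDUF genes. Both ends of this list lay outside the range of the 45 NDUF genes. NDUFA4, which was long counted with complex I, is now named COXFA4 and belongs to complex IV, and its ratio was -0.14 (127750 and 103001).

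Transcripts named after complex I genes that encode no subunit were also on the arrays. NDUFAF4P1, a transcribed pseudogene of NDUFAF4, gave 4091 on the DMSO array and 2552 on the HTE array, a ratio of -0.51. NDUFB2-AS1, a long noncoding RNA named as antisense to NDUFB2, gave 452 and 292, a ratio of -0.46. The ratios of NDUFAF4 and NDUFB2 themselves were -0.17 and -0.041. A pseudogene and its parent may share sequence, so cross-hybridisation between their probes was not tested. The 4 probes of NDUFA6-DT, a noncoding transcript that starts next to NDUFA6, gave ratios from -0.12 to 0.36.

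By the brightest probe of each gene, the other complexes of the respiratory chain and ATP synthase also held no gene at 1.5-fold. Their 38 nuclear genes had a median ratio of 0.0030 and an SD of 0.15, with 20 above 0 and 18 below. The medians were -0.094 in complex II (4 genes), 0.0018 in complex III (9), 0.071 in complex IV (10) and -0.088 in complex V (15). The ends were SDHC (-0.19) and SDHD (0.10) in complex II, UQCRFS1 (-0.24) and UQCR11 (0.21) in complex III, COX5A (-0.34) and COX6B1 (0.18) in complex IV, and ATP5MC1 (-0.46) and ATP5MC2 (0.20) in complex V. The lowest of the 45 complex I ratios, -0.22, was thus less far from 0 than the lowest in complexes III, IV and V. For SDHC, a second probe gave 8628 on the DMSO array and 12656 on the HTE array, a ratio of 0.72, past 1.5-fold. The brightest probe of SDHC and a further probe were below 0, at -0.19 and -0.28. With the mean over all probes of each gene, 2 of the 4 complex II genes were above 0, and the complex II median was -0.037.

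Genes that serve complex I from outside were listed too. Over all genes and transcripts 11631 of 23752 had a ratio below 0. Of 15 regulators of mitochondrial transcription and biogenesis, 12 had a ratio below 0 and 3 above, with a median of -0.14. NRF1, whose motif letters are shown above in capitals, gave 548 on the DMSO array and 288 on the HTE array, a ratio of -0.76. By the brightest probe of each gene NRF1 was the only one of the 15 at 1.5-fold, where 10.5% of all genes were at least that much lower. With normexp correction its ratio was -0.54, short of 1.5-fold. GABPB1, a subunit of GABP, had a ratio of -0.55, whereas GABPA, another subunit, was above 0 at 0.21. TFAM, the packaging and transcription factor of mitochondrial DNA, had a ratio of -0.29. GABPB1, GABPA and TFAM were chosen after their values were seen. ESRRA, a nuclear receptor of the same programme, was highest at 0.30. A second probe of ESRRA gave 1613 on the DMSO array and 2609 on the HTE array, a ratio of 0.87, past 1.5-fold. Of 15 measured genes of iron-sulfur cluster assembly, 13 were below 0 by the brightest probe of each, with a median of -0.095. NFS1, the cysteine desulfurase that supplies the sulfur, gave 25136 and 13781, a ratio of -0.70, and IBA57 was highest at 0.067. A second probe of NFS1 gave -0.31, and with the mean over all its probes the ratio was -0.50, short of 1.5-fold. With the mean over all probes of each gene, 10 of the 15 were below 0 and 5 above, with a median of -0.089. The medians of both lists, like those of complexes II and V, were below 0. Whether these lists differ from the complex I genes was not tested, nor was the relation between NRF1 or NFS1 and the complex I genes.

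**Figure D5:**
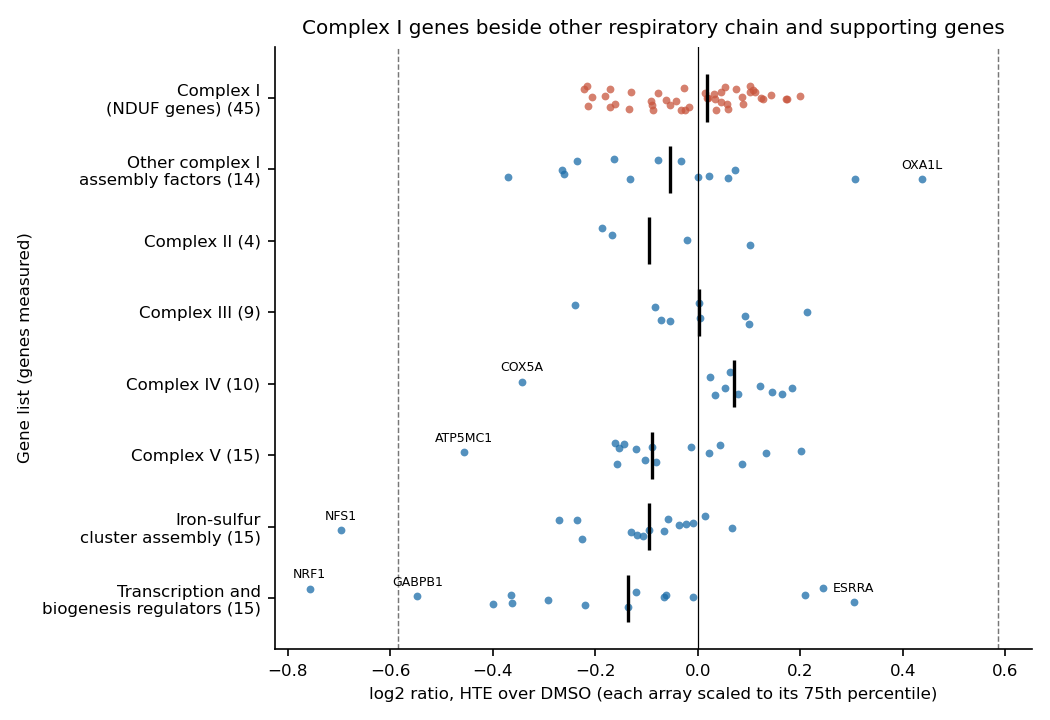
Log2 ratio of HTE over DMSO (horizontal axis, each array scaled to its 75th percentile) of each measured gene in 8 lists, with the list's median as a vertical bar and dashed lines at 1.5-fold. The complex I genes (red) lie between -0.22 and 0.20, and NRF1 and NFS1 are the points left of the lower dashed line.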

How the data were processed

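The authors deposited the Agilent Feature Extraction output of each array (version 11.5.1.1 in the file header, 10.7 in the submitters' processing notes), from which the processed signal of every spot was taken. It is an intensity that the software had background-subtracted and detrended. No scaling between arrays had been applied. Here control spots and spots flagged as outliers themselves were left out (440 on the DMSO array and 459 on the HTE array), log2 was taken of the deposited intensity, each array's 75th percentile was subtracted and replicate spots were averaged. Of 50532 usable probes, 29680 were kept, for which a share of spots of 0.5 or more passed the flag for signal well above background on either array. A probe dim on 1 array entered with a bound. RefSeq accessions named 28146 of the usable probes through the gene table of GRCh38.p14, and the brightest kept probe stood for a gene. The file headers name another build, so array coordinates were not used.

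The members and lists were chosen with earlier results of these data known. The values of 1 member are not reported here, though it stands in the counts. Genes named with values are the other nuclear core subunits, the highest and lowest ratio of each role and list, and genes whose probes differed by 0.5 or more, besides those said to be chosen after their values were seen. NDUFAB1, NDUFAF2 and NDUFB5 were also chosen after their values were seen. Genes measured as replicate spots, noncoding namesakes and genes with a printed promoter are named too. The alternatives were normexp background correction (offset 50, run on the median signal since the mean was not in the output), quantile, median, no and spike-in scaling, other filters on dim probes, outlier spots kept, and other probes of a gene. The number of arrays limits the precision. The main steps from spots to gene ratios were tested on the DMSO array and a noisy copy of it with known shifts. The alternatives and the motif search were not tested in that way. The tools were limma 3.58.1 in R 4.3.3 and, in Python 3.11.15, matplotlib 3.10.9, pandas 2.3.3 and numpy 2.4.6.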

Additional observations from a re-analysis of the deposited data

How the results depend on the processing

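The counts of complex I genes at 1.5-fold and 2-fold were 0 under each alternative except scaling to the spike-in probes, where all 45 were at least 1.5-fold and at least 2-fold lower. The median ratio of the complex I genes was -0.063 with scaling to the median, -0.15 with no scaling, -1.30 with the spike-in probes and -0.11 with the second brightest probe (9 genes). The number above 0 was 12, 3, 0 and 3 in the same order, and 22 with normexp correction and 19 with quantile normalization. The other filters, keeping outlier spots and the mean over probes left 24 above 0. Leaving out spots with an outlying local background, an alternative chosen after seeing the data, left 27 genes, of which 14 were above 0. Fewer genes entered with the second probe and with that filter, which lowers these counts. Of 170 ratios of the named members under the alternatives, 61 moved by more than the SD of replicate spots (0.051). All 16 named members moved with scaling to the median, with no scaling and with the spike-in probes, since each adds the same amount to every member. The count thus depends on which alternatives were chosen. No paired analysis was possible because there was 1 array per condition, and for the same reason no replicate could be left out.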
